A study of Homo sapiens with 4 samples.

Results

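Chromosome 18 carried 886 of the 28916 listed peaks of 2 chromatin immunoprecipitation sequencing (ChIP-seq) profiles, 302 of 15789 H3K27ac peaks and 584 of 13127 HSF1 peaks. The members were chosen by position alone: every peak of the 2 deposited lists on chromosome 18 was taken once, with the annotation of its first row. Chromosome 18 itself was picked with earlier results of these data known, so its density is given as a description. The profiles come from HCT116, an established human colorectal carcinoma cell line, untreated and formalin fixed. One library was made with an antibody against acetylated lysine 27 of histone H3 (H3K27ac) and another with an antibody against heat shock factor 1 (HSF1), and each was compared with an input library of its own, which is chromatin sequenced without immunoprecipitation. Both inputs and both immunoprecipitates share the cell line and carry no other agent or allele. With 1 library per group there is no replicate error, no test between the lists was possible, and the 95% intervals below cover counting error only. They take peaks as independent, although many stood in groups, and are too narrow to that extent.

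H3K27ac is deposited at active promoters and enhancers, and several such regions in close succession are often read together as a super enhancer. HSF1 is the main transcription factor of the heat shock response; it binds as a trimer to heat shock elements, in which the unit GAA and its reverse complement TTC alternate. Chromosome 18 is poor in genes, holds the cluster of desmosomal cadherins and several SMAD genes of the TGF-beta pathway, and its long arm is often lost in colorectal cancer. All peak positions are given in hg19.

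Promoters of genes that the peaks were assigned to are shown here, because they differed in base composition. Of 42 genes with an H3K27ac peak of the promoter class on chromosome 18, 38 had a RefSeq promoter, taken from 250 bases before to 50 bases after the start in GRCh38.p14. Below, capitals mark a match to GAANNTTC or TTCNNGAA, which are 2 facing units of the heat shock element, or to 3 units in a row. SOCS6, a suppressor of cytokine signalling, and NARS1, the cytosolic asparaginyl-tRNA synthetase, each had an H3K27ac peak over the annotated start. FBXO15, an F-box protein, and CCDC68, a centriole protein, were the 2 genes of this set whose promoter held 3 units. DCC, the netrin receptor, and SYT4, a synaptotagmin, had many HSF1 peaks and no H3K27ac peak. The promoters lie on chromosome 18 of GRCh38.p14 at chr18:70288795-70289094 for SOCS6 (plus strand), chr18:57621787-57622086 for NARS1 (minus), chr18:74147785-74148084 for FBXO15 (minus), chr18:54959412-54959711 for CCDC68 (minus), chr18:52339947-52340246 for DCC (plus) and chr18:43277441-43277740 for SYT4 (minus).
SOCS6: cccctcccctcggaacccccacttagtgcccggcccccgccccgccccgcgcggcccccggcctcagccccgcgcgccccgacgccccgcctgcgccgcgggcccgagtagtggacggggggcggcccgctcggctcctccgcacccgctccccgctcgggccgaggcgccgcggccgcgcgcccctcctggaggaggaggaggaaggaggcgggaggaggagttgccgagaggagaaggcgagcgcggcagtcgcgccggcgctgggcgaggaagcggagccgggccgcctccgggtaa
NARS1: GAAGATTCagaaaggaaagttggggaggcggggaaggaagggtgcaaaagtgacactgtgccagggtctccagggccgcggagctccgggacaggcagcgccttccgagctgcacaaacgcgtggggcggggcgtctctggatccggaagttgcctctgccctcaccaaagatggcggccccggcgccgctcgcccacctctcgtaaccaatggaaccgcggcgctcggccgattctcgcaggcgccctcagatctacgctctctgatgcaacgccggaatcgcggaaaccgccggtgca
FBXO15: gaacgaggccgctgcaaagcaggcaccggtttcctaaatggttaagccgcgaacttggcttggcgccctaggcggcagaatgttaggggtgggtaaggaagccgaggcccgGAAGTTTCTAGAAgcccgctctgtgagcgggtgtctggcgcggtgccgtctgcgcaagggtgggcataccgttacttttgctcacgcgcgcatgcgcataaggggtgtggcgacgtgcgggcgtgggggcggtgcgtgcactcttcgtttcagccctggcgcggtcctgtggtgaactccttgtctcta
CCDC68: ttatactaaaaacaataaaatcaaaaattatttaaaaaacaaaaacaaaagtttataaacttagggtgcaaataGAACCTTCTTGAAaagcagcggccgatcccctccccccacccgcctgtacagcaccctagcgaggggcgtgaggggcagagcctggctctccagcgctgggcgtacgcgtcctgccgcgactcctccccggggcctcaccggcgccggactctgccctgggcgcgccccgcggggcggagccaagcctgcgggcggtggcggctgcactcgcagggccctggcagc
DCC: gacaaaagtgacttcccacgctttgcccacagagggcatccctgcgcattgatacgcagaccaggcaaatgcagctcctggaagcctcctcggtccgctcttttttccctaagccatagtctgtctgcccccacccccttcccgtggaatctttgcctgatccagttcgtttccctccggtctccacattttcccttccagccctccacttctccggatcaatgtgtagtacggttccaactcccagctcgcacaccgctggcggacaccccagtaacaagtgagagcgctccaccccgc
SYT4: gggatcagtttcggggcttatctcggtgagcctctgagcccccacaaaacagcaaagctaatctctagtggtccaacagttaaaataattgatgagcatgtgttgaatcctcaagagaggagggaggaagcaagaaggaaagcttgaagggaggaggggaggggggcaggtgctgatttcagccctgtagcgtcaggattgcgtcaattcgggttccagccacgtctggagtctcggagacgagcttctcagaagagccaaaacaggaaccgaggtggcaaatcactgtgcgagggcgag

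The SOCS6 promoter was 81.3% G and C and held 47 CpG dinucleotides, the most of those printed. By contrast the DCC promoter held 15 CpG and the SYT4 promoter 11. CCDC68 has 2 entries, of which the one with the motif is shown. Over all entries of genes with an H3K27ac peak of the promoter class (n = 66, several starts for some genes) the median was 26.5 CpG per 300 bases, and over entries of genes with HSF1 peaks and no H3K27ac peak (n = 104) it was 6. Over all genes with an H3K27ac peak at any distance it was 23 (n = 172), and over all with an HSF1 peak 8 (n = 145), with some genes in both. Entries of chromosome 18 genes with no peak in either list (n = 445) also had a median of 6, and the whole table of 35116 promoters had 14. The middle 50% of the entries with an H3K27ac promoter peak ran from 16.5 to 35 CpG, and that of the HSF1 genes ran from 2 to 28, so the ranges overlapped.

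Heat shock element letters were searched in the same windows. GAANNTTC stood in 6.77% of all promoters in the table and in 7.21% of those of chromosome 18. It stood in 5 of 66 entries with an H3K27ac promoter peak (7.58%) and in 6 of 104 of genes with HSF1 peaks only (5.77%). For genes of the chromosome with no peak in either list the share was 7.87%. TTCNNGAA stood in 7.74% of all promoters and in 8.18% of those of chromosome 18. The counts were 7 of 66 (10.6%) and 4 of 104 (3.85%), and the share for genes with no peak was 8.99%. The 2 sets with peaks rest on few entries, and a difference between them was not tested. These motifs read the same on both strands, and each 3-unit match contains both of them. A run of 3 units (GAANNTTCNNGAA or TTCNNGAANNTTC) stood in 0.490% of all promoters and in 0.694% of those of chromosome 18. It stood in 0 of 104 entries of genes with HSF1 peaks only and in 2 of 145 of all genes with an HSF1 peak. Of the 66 entries with an H3K27ac promoter peak, 2 held it. Those were the FBXO15 window, with GAAGTTTCTAGAA starting 139 bases before the start, and the CCDC68 window, with GAACCTTCTTGAA starting 176 bases before it. The HSF1 list had no peak assigned to CCDC68. FBXO15 was assigned 6 HSF1 peaks of 14 to 24 tags, the nearest 117 kb from its start. So at neither gene did a listed HSF1 peak cover the printed letters.

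MicroRNA genes made up a further set of annotated starts, and their mature RNAs are shown because the sole HSF1 promoter peak of the chromosome fell on one of them. The RefSeq table held 21 mature sequences for 15 miRNA genes assigned a peak, 5 in the H3K27ac list and 11 in the HSF1 list, with MIR4320 in both. Capitals mark the seed, bases 2 to 8, and the 21 mature miRNAs had 21 different seeds. MIR4318, with 16 HSF1 peaks, is named only.
hsa-miR-5011-5p: uAUAUAUAcagccaugcacuc
hsa-miR-5011-3p: gUGCAUGGcuguauauauaaca
hsa-miR-548av-5p: aAAAGUACuugcggauuu
hsa-miR-548av-3p: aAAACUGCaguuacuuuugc
hsa-miR-302f: uAAUUGCUuccauguuu
hsa-miR-4320: gGGAUUCUguagcuuccu
hsa-miR-320c: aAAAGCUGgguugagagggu
hsa-miR-3591-3p: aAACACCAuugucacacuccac

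MIR5011 had 10 HSF1 peaks of 15 to 34 tags, of which 1, at chr18:64747713-64749830 with 30 tags and 3.77-fold enrichment, covered the annotated start. No H3K27ac peak lay within 1621 kb of that peak. MIR548AV had 7 HSF1 peaks, 12.9 to 120 kb from its start, among them the peak of highest score on the chromosome (82.2). MIR302F had 6 HSF1 peaks, all at least 76.0 kb from its start. In the H3K27ac list MIR320C1 had 3 peaks of 30, 36 and 43 tags within a stretch 8.74 to 14.4 kb upstream. MIR3591, which lies opposite the liver miRNA gene MIR122, had a single H3K27ac peak of 19 tags 39.5 kb away. Thus most miRNA assignments were of distant peaks, and the miRNA named is the annotated start that the list assigned, not a measured product.

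The density of listed peaks set the lists apart. Chromosome 18 held 3.94 H3K27ac peaks per Mb (95% Poisson interval 3.51 to 4.42) over the 76.6 Mb between its first and last listed peak, which placed it 20 among 23 chromosomes (1 to 22 and X) counted from the densest. The other chromosomes together held 5.41 H3K27ac peaks per Mb (5.33 to 5.50). HSF1 ran the other way, with 7.63 peaks per Mb (7.02 to 8.27) on chromosome 18 against 4.38 (4.31 to 4.46) elsewhere, place 2 of 23. Neither pair of intervals overlapped, but they take grouped peaks as independent and are too narrow to that extent. In this HSF1 list chromosome 8 was denser at 9.87 peaks per Mb, and chromosome 21 followed at 7.43, within the counting interval of chromosome 18. There were 1.93 HSF1 peaks for each H3K27ac peak on chromosome 18, second to 3.03 on chromosome 21 and next to 1.85 on chromosome X. The 2 lists were cut at different scores, minus 10 times the log10 of the peak caller's p-value, at 50 for H3K27ac and 30 for HSF1, so the ratio is to be read only across chromosomes and not as a ratio of binding sites.

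**Figure D1:**
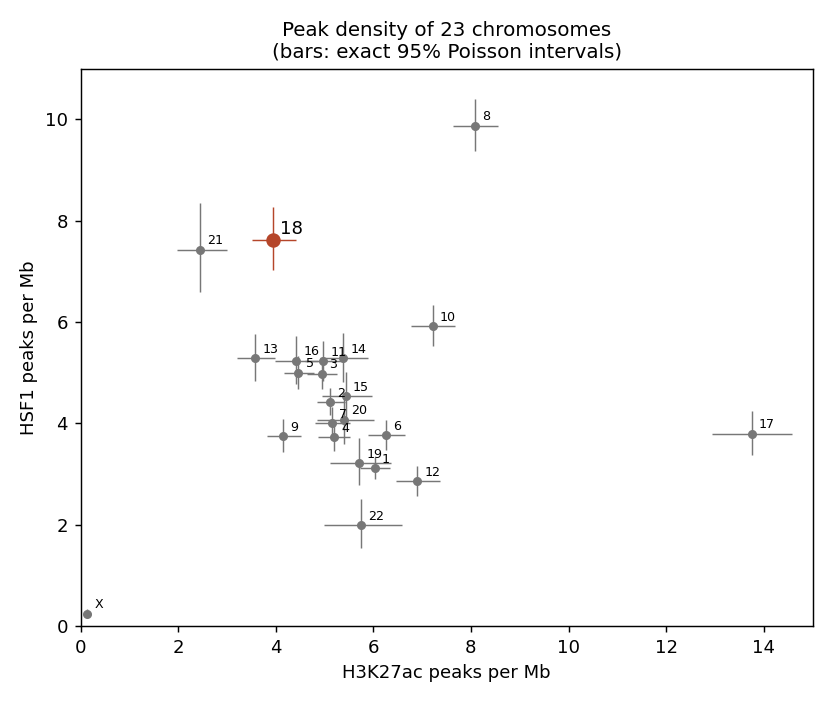
HSF1 peaks per Mb against H3K27ac peaks per Mb for 23 chromosomes, 1 point each, with exact 95% Poisson intervals as bars. Chromosome 18, the large point, stands at 3.94 H3K27ac and 7.63 HSF1 peaks per Mb, near chromosome 21 and below chromosome 8 on the HSF1 axis.

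The strength of the peaks differed less than their number. Tag counts in a peak, the reads of the immunoprecipitate inside it, had a median of 22 (quartiles 19 and 31.8, range 15 to 122) for H3K27ac on chromosome 18 and 24 (19 and 34, up to 535) on the other chromosomes. HSF1 peaks had a median of 20 tags (17 and 25, range 13 to 49) on chromosome 18 and 20 (17 and 27, up to 451) elsewhere. Per kb of peak the medians on chromosome 18 were 20.2 and 15.2 tags. Median fold enrichment over local background was 6.73 for H3K27ac on chromosome 18 and the same elsewhere, and 4.74 against 4.68 for HSF1. The peaks were called from few reads, and every HSF1 peak of the chromosome had fewer than 50 tags. Chromosomes 8, 10, 16 and 17 had higher medians in both lists, 33, 29, 26 and 36 tags for H3K27ac and 30, 25, 23 and 27.5 for HSF1.

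At the cuts used, peaks of high fold enrichment were not more frequent here than in the whole lists. A fold of 9 or more was reached by 4.90% of all H3K27ac peaks and by 9 of the 302 on chromosome 18 (2.98%, exact 95% interval 1.37 to 5.58). A fold of 6 or more was reached by 8.13% of all HSF1 peaks and by 46 of 584 on chromosome 18 (7.88%, 5.82 to 10.4). Both intervals held the share of the whole list. The H3K27ac cut lay just above 17 peaks of chromosome 18 tied at 8.98-fold, so its count depends on the cut. The false discovery rate that the caller gave to the H3K27ac peaks rose with their score, from 9.01% at a score of 50.1 to 100% at 417.7, and the 3 peaks at 100%, of DLGAP1-AS2 and LINC01910, had the highest scores. In this list the column therefore cannot be read as an error rate of a peak. For HSF1 it fell as the score rose, from 22.4% at the lowest score to 2.41% at the highest, 82.2, with a median of 17.9%, and 1 peak of 584, the one at MIR548AV, was at 5% or less.

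**Figure D2:**
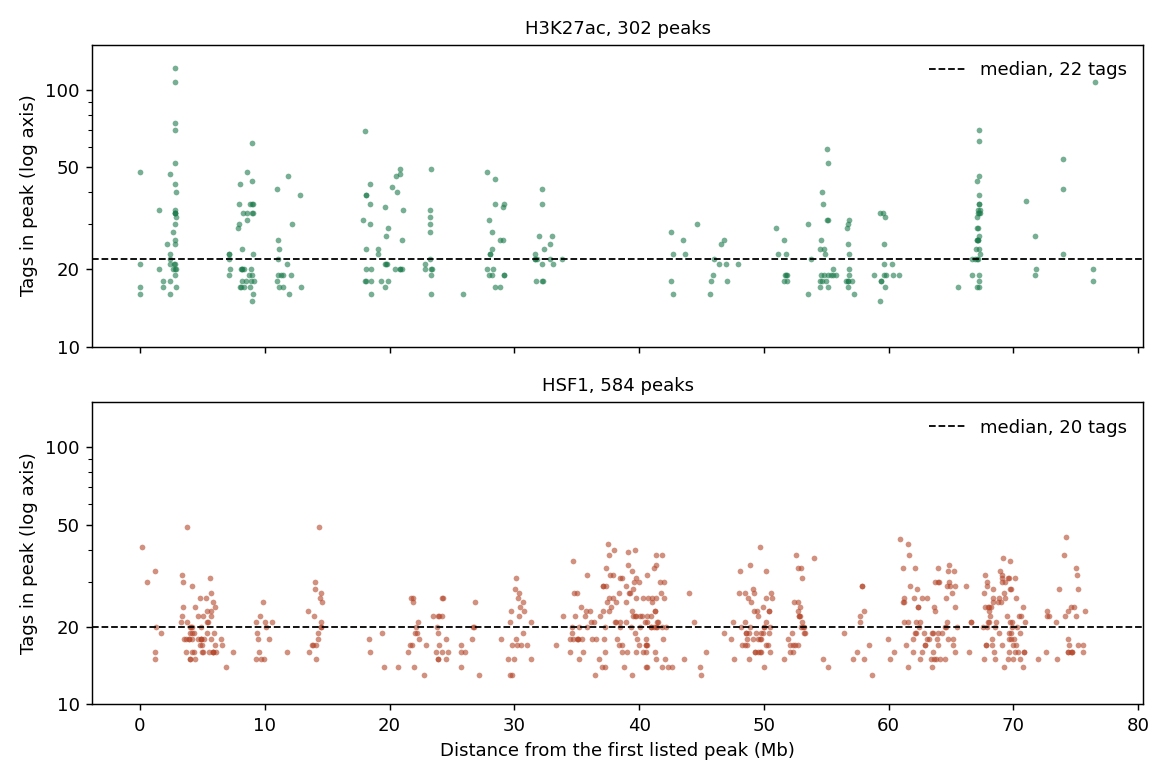
Tags in each peak on a log axis against distance from the first listed peak in Mb, 302 H3K27ac peaks above and 584 HSF1 peaks below, with the median of each list dashed. H3K27ac reached 122 tags near the start of the chromosome, and HSF1 stayed between 13 and 49 along its whole length.

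The H3K27ac peak of highest fold stood 7.49 kb upstream of TXNDC2, a testis thioredoxin (chr18:9877804-9879150, 33 tags, 14.6-fold). YES1, a SRC family kinase, had a peak of 48 tags and 10.1-fold 32.0 kb upstream of its start. The strongest cluster carried the name of DLGAP1-AS2, an antisense lncRNA inside the DLGAP1 gene. Its peaks at chr18:3625477-3630034 and chr18:3649901-3654288 had 122 and 107 tags, both at 10.1-fold, and a further one had 74 tags at 9.54-fold. RAB31, an endosomal GTPase, had 62 tags at 9.89-fold in its intron, 122 kb from the start. NEDD4L, a ubiquitin ligase that acts on sodium channels and SMAD proteins, had a peak of 31 tags at 9.89-fold. It lay 13.5 kb upstream of an internal start at chr18:55862636, inside the gene body, which begins at chr18:55711457. CABLES1, a CDK5 adaptor, and ATP8B1, a phospholipid flippase, each reached 9.54-fold with 29 and 36 tags. By tags alone, a peak 40.5 kb from the non-coding LOC284240 at the end of the chromosome, with 107 tags, shared the second place. The DLGAP1-AS2 peak of 74 tags came next, and then peaks of DLGAP1-AS2 and LINC01910 with 70 tags. At place 10 of the fold order 17 peaks tied at 8.98-fold, among them those over the start of SOCS6 (29 tags) and an internal start of NEDD4L (59 tags).

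The leading HSF1 peaks lay far from starts. CDH19, a cadherin known from Schwann cell precursors, led at 8.05-fold with 24 tags, 172 kb from its start (chr18:64442525-64443668). MIR548AV followed at 7.94-fold with 36 tags and DLGAP1, a scaffold of the postsynaptic density, at 7.53-fold with 18 tags. LINC01541 reached 7.45-fold with 21 tags and MIR302F 7.09-fold with 18 tags, both about 400 kb away, at 395 and 430 kb. At the next place 13 peaks tied at 6.64-fold, among them peaks of L3MBTL4, KC6, RIT2, CDH7 and MIR5011. Most tags were found at DLGAP1 and LOC644669, with 49 each, GALR1, a galanin receptor, with 45, and LINC01924 with 44. The DLGAP1 peak of 49 tags was 3154 bp wide and that of LINC01924 2400 bp, the latter at 3.02-fold. These 4 peaks lay 143 to 1500 kb from the nearest H3K27ac peak.

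Annotation classes differed more between the lists than between chromosome 18 and the rest. Of the H3K27ac peaks 116 were intronic (38.4%), 95 intergenic (31.5%), 47 upstream, which the files use up to 20 kb from a start (15.6%), 43 promoter, within 2 kb (14.2%), and 1 exonic. The promoter class held 16.7% of all H3K27ac peaks, which lay inside the interval of chromosome 18 (10.5 to 18.7%). Of the HSF1 peaks 373 were intergenic (63.9%), 173 intronic (29.6%), 34 upstream (5.82%), 3 exonic and 1 of the promoter class (0.171%, 0.00434 to 0.95%). Over all chromosomes 1.46% of HSF1 peaks were of the promoter class, and chromosome 18 had the lowest share of the 23. That place rests on 1 peak, and chromosomes 14 and 20 came close with 0.215% and 0.394%. HSF1 peaks stood 163 kb from a start in the median and H3K27ac peaks 26.2 kb. Beyond 100 kb lay 61.8% of the former and 14.9% of the latter. The first-row gene was protein coding for 82.1% of the H3K27ac peaks and 48.3% of the HSF1 peaks, and a lncRNA for 14.6% and 40.6%. On the other chromosomes the protein-coding shares were 75% and 56.4%, both outside the intervals of chromosome 18 (77.3 to 86.3% and 44.2 to 52.4%). The lncRNA shares there were 17.2% and 33.7%, the second outside its interval (36.6 to 44.7%). Peaks assigned to the same gene share its type, so these intervals, which take peaks as independent, are too narrow.

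**Figure D3:**
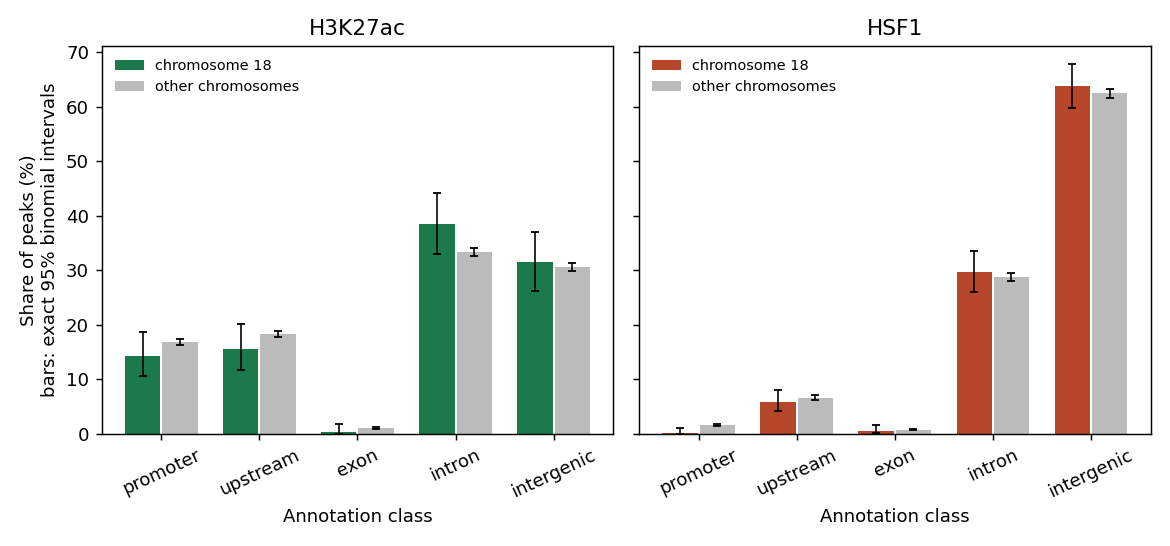
Share of peaks in each annotation class in percent, for chromosome 18 (coloured) and the other chromosomes (grey), with exact 95% binomial intervals, H3K27ac left and HSF1 right. Promoter peaks made up 14.2% of the H3K27ac peaks of chromosome 18 and 0.171% of its HSF1 peaks.

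At 12 sites an H3K27ac peak covered the deposited start of the gene they were assigned to. The highest in tags was at NEDD4L (59 tags, 8.98-fold), over a start inside its gene body at chr18:55888802. Next came CEP76, which limits centriole duplication (46 tags, 7.30-fold). SOCS6 had 29 tags, TGIF1 28, DLGAP1-AS2 and LIVAR 26 each, NARS1 24 and the myosin light chain MYL12A 23. RAB31 with 20 tags, the phosphoesterase MPPE1 with 19, LOC100505549 with 18 and the tubulin TUBB6 with 17 were the lowest. All 12 stood 78.8 kb or more from any HSF1 peak. TIMM21, a subunit of the mitochondrial import machinery that starts back to back with FBXO15, had 37 tags at 8.97-fold just inside its start.

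Along the chromosome the lists took turns. Counted in 39 bins of 2 Mb from the first listed peak, H3K27ac had more peaks in 16 bins and HSF1 in 23, and 9 bins held HSF1 peaks without any H3K27ac peak while 2 held the reverse. In bins of 5 Mb of hg19 the Spearman correlation of the counts was -0.32 over 16 bins, in bins of 2 Mb -0.69 over 38 bins and in bins of 10 Mb -0.17 over 8 bins. These points share the 2 libraries and the gaps of the assembly, and the values are descriptions. The largest contrast was in the bin from 35 to 40 Mb, with 0 H3K27ac and 68 HSF1 peaks, and the reverse was seen from 55 to 60 Mb, with 36 H3K27ac and 13 HSF1 peaks. Median tags of the lists moved the same way across the 14 bins with at least 5 peaks in each (Spearman 0.63, Pearson 0.66), and the bin from 65 to 70 Mb had medians of 26 and 23.5 tags. In bins of 2 Mb the same Spearman correlation was 0.16 over 7 bins (Pearson 0.54). It was -0.06 over 8 bins of 10 Mb (Pearson 0.03).

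**Figure D4:**
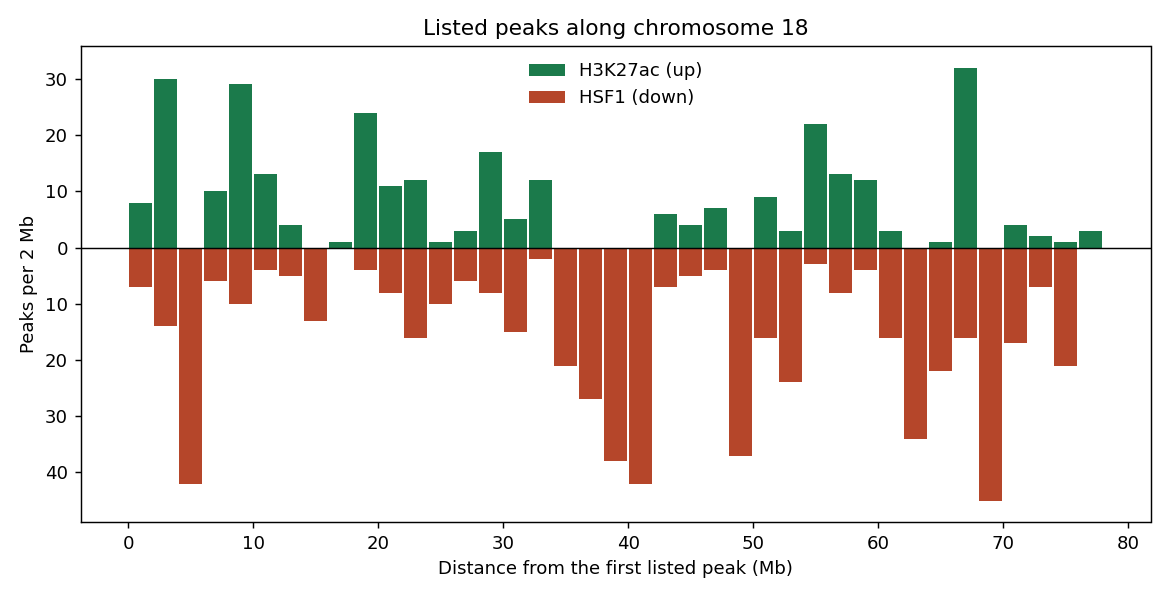
Peaks per 2 Mb against distance from the first listed peak in Mb, H3K27ac upward and HSF1 downward. The tallest H3K27ac bar has 32 peaks and the tallest HSF1 bar 45, and 9 bars of HSF1 have no H3K27ac counterpart. The lists were cut at different scores.

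The arms were separated at the largest interval without any peak, chr18:15362505-18690169 (3.33 Mb), which holds the centromere. H3K27ac density was 6.46 per Mb on the short arm (95% interval 5.22 to 7.91, 94 peaks) and 3.54 on the long arm (3.08 to 4.06, 208 peaks). HSF1 density was 6.94 (5.65 to 8.43, 101 peaks) and 8.23 per Mb (7.51 to 9.0, 483 peaks), with overlapping intervals. At a score of 50 or more 7 HSF1 peaks were left on the short arm and 62 on the long arm, a density ratio of 0.455 in place of 0.843. Median tags differed little, at 22 and 22.5 for H3K27ac and 19 and 20 for HSF1. A fold of 9 or more was reached by 6 of 94 H3K27ac peaks on the short arm and 3 of 208 on the long arm. Over all chromosomes the share was 4.90%. The cut of 9 lay just above 17 peaks of chromosome 18 tied at 8.98-fold, on both arms, so these counts depend on it. A score of 100 or more was held by 17 and 28 peaks of the arms, and by 2675 of 15786 over all chromosomes. The DLGAP1-AS2 cluster supplied short-arm peaks of 10.1, 10.1 and 9.54-fold, so these counts lean on a single cluster.

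The longest stretch without an H3K27ac peak on the long arm, chr18:34630944-43355752 (8.73 Mb), held 134 HSF1 peaks, or 15.4 per Mb. They were assigned to SYT4, KC6, MIR4318, LINC01477, LINC00907, LINC01478, the neuronal GTPase RIT2, SETBP1 and other genes, and had a median of 21.5 tags. The stretch of 4.77 Mb at chr18:61600888-66370471 held 70 HSF1 peaks, including those of CDH7, CDH19 and MIR5011. On the short arm chr18:3694918-7921466 (4.23 Mb) held 61, including DLGAP1 and L3MBTL4. The densest was chr18:68116406-71815794 (3.70 Mb) with 73 HSF1 peaks, 19.7 per Mb, at LINC01541, CBLN2, GTSCR1 and MIR548AV. The DCC stretch, chr18:48727749-51796866 (3.07 Mb), held 51.

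Stretches free of HSF1 peaks were shorter, apart from one of 3.78 Mb that spans the interval without any peak and held 8 H3K27ac peaks. A stretch of 5.01 Mb over the same interval had no H3K27ac peak and 18 HSF1 peaks. One of 1.60 Mb, chr18:2480755-4079876, held 32 H3K27ac peaks at DLGAP1-AS2, MYL12A, TGIF1, SMCHD1 and others. Another, chr18:8282913-10079936, held 34 (18.9 per Mb) at RAB31, NDUFV2, MTCL1 and TWSG1. The desmosomal cluster stood in another one, chr18:27955248-29764195 (1.81 Mb), with 15 H3K27ac peaks. Neighbouring H3K27ac peaks were 26.7 kb apart in the median and 36.5% of the intervals were within 10 kb, while HSF1 peaks were 48.8 kb apart and 12.4% were within 10 kb. At these unlike cuts, H3K27ac peaks were thus more often grouped, although fewer.

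On chromosome 18, 2 HSF1 peaks overlapped an H3K27ac peak by 1 bp or more (0.343%, 95% interval 0.0415 to 1.23%), and over all chromosomes the share was 0.297%. One was in an intron of SPIRE1, an actin nucleator, where an HSF1 peak of 16 tags and 4.87-fold (chr18:12594780-12595885) met an H3K27ac peak of 21 tags and 6.73-fold (chr18:12595572-12596610). The other lay 92.8 kb upstream of RAB27B, a GTPase of vesicle secretion, with 15 HSF1 tags at 4.87-fold (chr18:52402418-52403438) and 18 H3K27ac tags at 7.38-fold (chr18:52401846-52402726). Within 10 kb there was 1 more, in an intron of NEDD4L, with 14 HSF1 tags at 3.99-fold (chr18:55969856-55970697), 9.50 kb from H3K27ac. Their scores were 31.1, 30.5 and 34.5, below the median of 35.9 for the HSF1 peaks of the chromosome. The median HSF1 peak was 997 kb from the nearest H3K27ac peak, and the median H3K27ac peak was 303 kb from the nearest HSF1 peak. Of 460 annotated genes of chromosome 18, 119 (25.9%) were assigned an H3K27ac peak and 126 (27.4%) an HSF1 peak, and 23 had both, 19.3% of the former and 18.3% of the latter.

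Genes differed in how many peaks they took. DLGAP1-AS2 had 20 H3K27ac peaks of 17 to 122 tags, LINC01910 13 of 17 to 70 tags, and KCTD1, NEDD4L and PMAIP1 10 each. RAB31 had 9. The gene body of DLGAP1 held 21 H3K27ac peaks, although none was assigned to it. Among HSF1 peaks DCC led with 33 of 14 to 41 tags, 25 of them intronic and 8 intergenic. Its gene body of 1196 kb held 26 HSF1 peaks (21.7 per Mb), counted whatever gene they were assigned to. CDH7 and SYT4 followed with 18 each, KC6 and MIR4318 with 16 each and LINC01477 with 15. None of these 6 genes had an H3K27ac peak, and no HSF1 peak of DCC was closer than 41.9 kb to its start.

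To look for groups of adjacent enhancers, H3K27ac peaks within 10 kb of each other were joined and ranked by width times fold enrichment summed over the peaks. Of 10295 joined regions in all, 279 (2.71%) exceeded the tangent point, at which the scaled curve of ranked values reaches a slope of 1, and so did 3 of the 192 on chromosome 18 (1.56%). The first, at DLGAP1-AS2, had rank 16, joined 19 peaks over 85.4 kb (chr18:3583631-3668991) and held 831 tags with no HSF1 peak inside. LINC01910 and LIVAR shared a region of 10 peaks over 30.4 kb with rank 68 and 371 tags. RTTN, a centriole protein, had 6 peaks over 21.6 kb with rank 245. RAB31 at rank 284, SOCS6 at 309 and TWSG1, a regulator of BMP signalling, at 370 lay below that point. None of these 6 held an HSF1 peak, and the nearest HSF1 peak was 244 kb or more away. RTTN, SOCS6, LIVAR and LINC01910 are neighbours on the long arm, so 3 of the 6 regions came from one district.

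The gene groups describe 99 genes of the chromosome in 11 groups, chosen with earlier results known. In all, 42 of them had an H3K27ac peak and 31 an HSF1 peak, and with promoter and upstream peaks alone 21 and 6. The desmosomal cadherins, which hold epithelial cells together, had H3K27ac peaks at 5 of 7 members and HSF1 peaks at 0 of 7. None of these peaks was of the promoter class, and 1 member, DSC3, had one of the upstream class. DSC3 had peaks of 48 and 20 tags, DSG3 of 28 and 19, DSG1 of 23 and 23, DSC1 of 31 and 19 and DSG2 a single one of 20 tags. Those of DSG3 lay 5.15 and 7.32 kb from its start, those of DSC1 and DSG1 41.4 to 72.6 kb from theirs. DSC2 and DSG4 had none. For classical cadherins the counts ran the other way, with H3K27ac at 1 of 4 and HSF1 at 4 of 4. CDH7 had 18 HSF1 peaks, CDH19 10, CDH20 7 and CDH2, N-cadherin, 6. None of these was of the promoter or upstream class. They lay 53.8 to 659 kb from the start for CDH7 and 16.25 to 412 kb for CDH19. For CDH20 the range was 163 to 473 kb and for CDH2 131 to 778 kb. The sole H3K27ac peak of CDH2 had 16 tags and lay 981 kb away.

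In the TGF-beta and SMAD group H3K27ac peaks were assigned to 6 of 8 members and HSF1 peaks to 2 of 8. The receptor-regulated SMAD2 had a promoter H3K27ac peak of 30 tags at 6.73-fold, and its HSF1 peak of 21 tags was 262 kb from its start. The inhibitory SMAD7 had a single H3K27ac peak of 16 tags 25.5 kb away. TGIF1, a homeodomain repressor, had 2 of 28 and 20 tags, TWSG1 4 of 18 to 48 tags and LDLRAD4, a negative regulator of the pathway, 2 of 17 and 39 tags. SMAD4, the common partner, had no peak in either list. CCBE1, which was counted among these members although it acts in lymphatic growth, had 1 peak in each list, of 18 and 19 tags.

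Cell death and survival genes had H3K27ac peaks at 5 of 6 members. PMAIP1, the BH3-only protein NOXA, had 10 of 17 to 31 tags, 1 of them in the promoter class, and the phosphatase PHLPP1 had 7 of 17 to 33 tags. MALT1 had 2, and TNFRSF11A and CIDEA 1 each. BCL2, the anti-apoptotic member, had no H3K27ac peak and 2 HSF1 peaks of 15 and 18 tags. Of the growth signalling and trafficking genes 8 of 10 had H3K27ac peaks, 5 of them in the promoter class, and 3 of 10 had HSF1 peaks, at RAB27B, NEDD4L and ATP8B1, 1 each with 14 or 15 tags. In the mitosis and DNA synthesis group the counts were 6 of 12 and 1 of 12, and 5 of the 6 had a promoter peak, at CEP192, CEP76, RBBP8, ROCK1 and SMCHD1. TYMS and NDC80 had no peak in either list.

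Neuronal and synaptic genes were assigned HSF1 peaks at 10 of 13 members, 96 peaks in all with a median of 20 tags. H3K27ac peaks were assigned to 3 of 13, DTNA, MC4R and MBP. DLGAP1 counts as without H3K27ac, although its gene body held 21 H3K27ac peaks that were assigned to other genes. CBLN2, a synapse organizer, had 11 HSF1 peaks, DLGAP1 10, CHST9 8 and GALR1 7, and none of the 96 was of the promoter class. MBP, myelin basic protein, had 3 H3K27ac peaks of up to 54 tags and 1 HSF1 peak of 38 tags at 6.31-fold, 11.7 kb from the nearest H3K27ac peak. Among the transcription factors HSF1 peaks stood at 5 of 12 (TCF4, ZNF521, SALL3, SETBP1 and ZBTB7C) and H3K27ac at 1 of 12, NFATC1. TGIF1 and the SMAD genes were counted in the TGF-beta group instead. GATA6 had no peak in either list. The metabolism group had H3K27ac peaks at 4 of 11 and HSF1 peaks at 1 of 11, led by 7 H3K27ac peaks of the complex I subunit NDUFV2. All 7 were intergenic, 44.8 to 178 kb from its start. In the laminin and epithelial adhesion group the counts were 2 of 6 and 3 of 6. Of the 10 clade B serpins, SERPINB5 (maspin) had an H3K27ac peak and SERPINB13 an HSF1 peak. These counts stand beside 25.9% and 27.4% of the 460 genes.

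**Figure D5:**
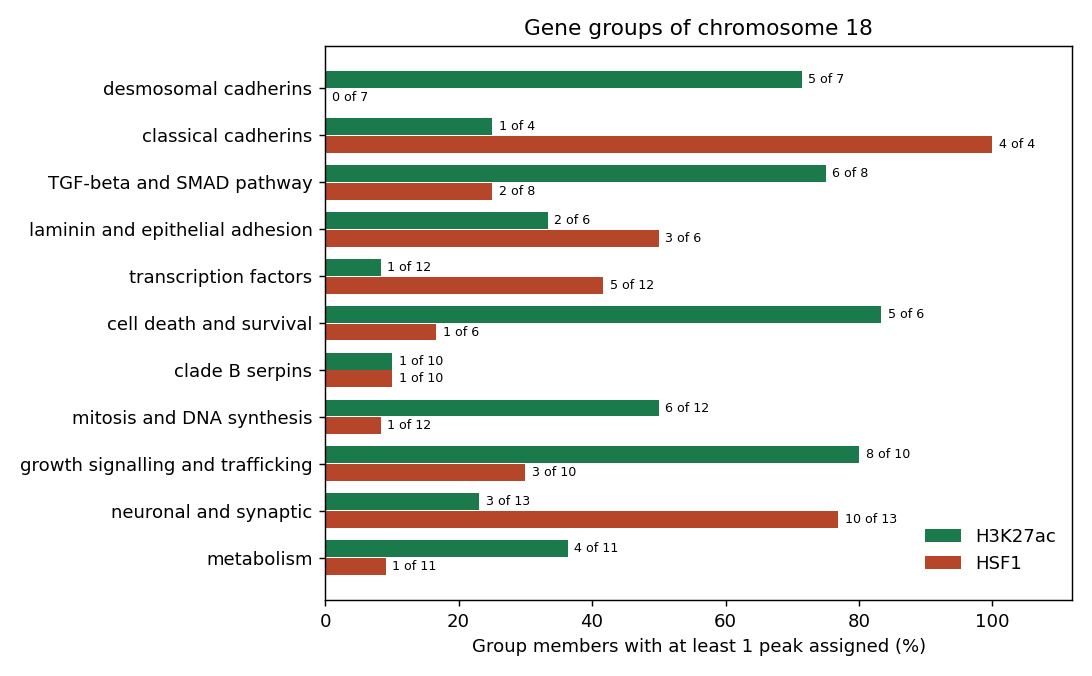
Share of the members of 11 gene groups of chromosome 18 with at least 1 peak assigned, in percent, for H3K27ac and HSF1, with the counts beside the bars. Desmosomal cadherins had 5 of 7 and 0 of 7, and neuronal and synaptic genes 3 of 13 and 10 of 13. DLGAP1 counts as without H3K27ac, although its gene body held 21 H3K27ac peaks assigned to other genes.

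Marker genes on all chromosomes were set beside the cell type label. H3K27ac peaks were assigned to 7 of 12 colonic epithelial markers (EHF, ELF3, KRT20, CLDN4, CDH1, KRT8 and KRT18) and to 2 of 12 markers of other lineages (PTPRC and MYL2), beside 24.6% of the 29849 annotated genes. The remaining colonic epithelial markers had none, so these counts do not by themselves establish the label.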

How the data were processed

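Chromatin from HCT116 cells was immunoprecipitated and sequenced by the authors, 1 library for H3K27ac, 1 for HSF1 and an input for each (4 libraries). Per the labels, the submitters' processing notes name Bowtie2 2.2.7, FastQC and hg19, and the study's methods name MACS, which compared each immunoprecipitate with its input. The deposited lists hold, for each peak, the count of tags, the score (minus 10 times log10 of p), fold enrichment (a ratio over local background), a false discovery rate in percent as given by the authors, and other columns deposited in bp, such as width and distance to a RefSeq start. Read totals and read filters are not given in the sources used here, so tags were not scaled between lists, and the inputs were used only through the authors' peak calls.

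The H3K27ac list has 39350 rows and the HSF1 list 24461, with 1 row per peak and transcript; the first row of each peak was kept for classes and all rows for genes. Densities are peaks per Mb between the first and last listed peak of a chromosome, with exact Poisson intervals, and shares have Clopper-Pearson intervals. Peaks were called shared at 1 bp or more. PCR duplicates were not separable, so intervals cover counting error only. Symbols matched RefSeq names (GRCh38.p14) for 119 of 120 (H3K27ac) and 126 of 129 (HSF1); hg19 peak sequence was not used here, and RefSeq promoters were matched by transcript. Named peaks are, per list, the 10 of highest fold and 5 with most tags, the 6 best joined regions, the 6 genes with most peaks, HSF1 peaks within 10 kb of H3K27ac and the members of the gene groups. Peaks over a start, miRNAs, genes of stretches and the printed promoters were added after their values were seen. The members and lists were chosen with earlier results of these data known. Alternatives were stricter scores (50 and 100), bases covered, tags per kb, other bins, joining distances and assignment rules. Calculations used Python 3.11.15, pandas 2.3.3, numpy 2.4.6, scipy 1.17.1 and matplotlib 3.10.9, and the steps were tested on simulated peaks, where 6 of 6 checks recovered the values put in.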

Additional observations from a re-analysis of the deposited data

How the results depend on the processing

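Stricter scores moved several values, and the cause was not tested. With a score of 100 or more, 45 H3K27ac peaks were left on chromosome 18: their density was 0.639 times that of the other chromosomes instead of 0.729, their promoter share 8.89% and the short arm 2.45 times as dense as the long arm instead of 1.82. At that score no HSF1 peak of chromosome 18 was left, so its ratio and the shared peaks were 0. With a score of 50 or more, 69 HSF1 peaks were left: the density ratio was 1.76 instead of 1.74, the median tags 0.906 times those elsewhere instead of 1, the ratio of the arms 0.455 instead of 0.843, the promoter share 0% and the shared peaks 0. Per kb of peak, the ratio of median tags was 0.987 instead of 0.917 for H3K27ac and 0.986 for HSF1. Joining at 5 kb left 6 and at 20 kb 5 regions of chromosome 18 above the tangent point, with a best rank of 40 at 5 kb. Counting only promoter and upstream peaks left 21 of 42 group members with an H3K27ac peak and 6 of 31 with an HSF1 peak. In all, 36 alternative values were computed for 16 results, of which 16 values fell outside the limits set for their result and 20 within. The Spearman correlation of the counts, -0.324 in bins of 5 Mb, was -0.691 in bins of 2 Mb and -0.167 in bins of 10 Mb. No paired analysis was possible because each group has 1 library and no test was run. Low tags per peak limit all values.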
